A study of Nothobranchius furzeri with 39 samples.

Results

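The genes described here are those whose names mark them as parts of the machinery of chromosome replication and cell division of Nothobranchius furzeri, the turquoise killifish, whose lifespan of months makes it a model of ageing. They were chosen by name alone: gene names beginning with the stems of the A, B and E cyclins, the numbered cyclin-dependent kinases (CDKs), the CDC, MCM and ORC families, centromere proteins, BUB checkpoint proteins, Aurora and Polo kinases, E2F factors, condensin subunits, kinesins and type 2 topoisomerases, plus pcna and mki67. The rule took 119 of 25099 genes in the table of 2-month-old fish and 83 of 16383 genes in each of the 2 tables of 3-month-old fish. A name rule also takes genes outside division, such as neuronal transport kinesins. A narrower list of 53 members with a textbook role in replication or mitosis (37 in the 3-month tables) is called core below. The other 66 are not all outside division. They also hold orc2 to orc5, bub3 and the 4 anaphase-promoting complex genes. Another 42 genes carry only LOC identifiers in the files but have a RefSeq symbol that the rule would take, among them aurkb, top2a, ccnb2 and orc1, and they are not members.

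RNA was measured by poly(A)-selected single-end sequencing of whole organs. The 2-month set held brains and livers of 3 genotypes: wild type (WT), mutant for atm, and mutant for both atm and cgas (double mutant below). Each had 4 fish, 2 male and 2 female, and the atm liver of fish 3 was not analysed here. WT 1 and 2, atm 3 and 4 and double mutant 1 and 4 were male. One 3-month set held livers of 4 WT males (L7, L8, L19 and L33) and 3 blm mutant males (L3, L29 and L30). The other 3-month set held brains of 2 WT fish (3_m and 4_f) and 5 cgas mutants (1_f, 2_f, 3_f, 2_m and 3_m), where f and m stand for female and male; the library of cgas 1_m held 0 counts and was left out. The atm kinase responds to DNA breaks, the blm helicase resolves recombination intermediates, and cgas senses DNA in the cytosol. The labels do not say whether the mutants come from 1 founder line or several, and each library is 1 numbered fish.

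Cell division is ordered in steps. E2F factors control genes for DNA replication, some as activators and others as repressors. ORC and CDC6 load the MCM2-7 helicase on origins, CDC7 and CDC45 start it, and the clamp PCNA holds the polymerase on DNA. Cyclins A and B with CDK1 drive entry into mitosis, condensin compacts chromosomes, Aurora and Polo kinases build the spindle, kinesins move chromosomes on it, kinetochore proteins bind them to it, and BUB proteins hold anaphase back until all are attached, when CDC20 activates the anaphase-promoting complex. Most hepatocytes of a grown liver are at rest, while the brain of adult fish keeps neural progenitors that divide. In whole organs, fewer cells of a type and less RNA per cell cannot be told apart.

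The 2-month brain libraries held 18.6 to 39.3 M counts (M stands for 1000000) and the 2-month livers 25 to 36.8 M. The 3-month livers held 19.5 to 24.1 M and the 3-month brains 11 to 17.3 M. WT livers 2, 3 and 4 were the shallowest 2-month livers, at 26.7, 25 and 26.8 M. WT liver 1 and the mutant livers held 29.4 to 36.8 M. Male WT brains held 20.9 and 18.97 M and female WT brains 39.3 and 33.6 M. In atm brains the males held 33.6 and 20.7 M and the females 21.03 and 19.55 M. The part of depth in the genotype and sex comparisons was not tested. Neuron markers summed to 1302 to 1588 counts per 1000000 (CPM) in 2-month brains, where 3 of 8 were measured, and to 0 to 1.77 CPM in 2-month livers; the 3-month brains held 519 to 1001 CPM from 2 measured markers. The targeted genes did not give a clean check of the labels in every set, and a mutant allele can still be transcribed. By CPM of total counts, atm stood at 27.0 to 37.5 in WT brains, 21.5 to 23.6 in atm brains and 19 to 26.7 in double mutant brains. All WT brains thus lay above all mutant brains, among them the brain labelled double mutant 4 at 20.6 CPM. In livers atm overlapped, at 1.56 to 5.55 CPM in WT, 1.91 to 2.34 CPM in atm and 1.44 to 4.02 CPM in double mutants. The liver labelled double mutant 4 held 4.02 CPM and the other double mutant livers at most 2.41 CPM. blm stood at 6.04 to 11 CPM in WT and 4.64 to 6.76 CPM in blm livers. The gene for cgas, listed as mb21d1, held 5 to 131 counts in double mutant brains and 0 to 212 counts in double mutant livers, and in both organs the highest library was the one labelled double mutant 4. The other double mutant brains held at most 9 counts and the other double mutant livers at most 1. For mb21d1 the fish labelled double mutant 4 thus stood apart from its group. Its brain was no match for the 2-month WT brains either, at 8 to 14 counts, or the atm brains, at 6 to 13. At 2 months and in the 3-month livers the gene did not separate WT from mutant libraries. It held 271 counts in WT liver 1 and 0 to 6 in the other WT livers. It held 362 and 92 counts in blm livers L3 and L30 and 1 to 9 in the other 3-month livers. In the 3-month brains it held 282 counts in WT 4_f, 19 in WT 3_m and 8 to 18 in the cgas brains. By CPM of total counts both WT brains lay above the cgas brains there, at 22.7 and 1.62 CPM against 0.636 to 1.18 CPM. Summed neutrophil markers stood at 72.7 CPM in the brain labelled double mutant 4 and at 6.61 to 18.1 CPM in the other 2-month brains, and they were also high in its liver, in WT liver 1, in blm L3 and in WT 4_f; the part of those cells in the mb21d1 counts was not tested. Group means and core medians of the genotype and sex comparisons that this fish enters are given with and without it. Nothing in the labels says that litters or extractions were shared, so within an organ p-values measure the spread between single fish. By their titles, brain and liver of 1 number come from 1 fish. The brain and liver labelled double mutant 4 carry sample names with different prefixes, D and P. The main fits between organs carried no term for the fish, so their p-values treat the 2 organs of a fish as independent.

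Core genes were read in every 2-month brain at levels that overlapped between genotypes. Their summed level, which weights genes by their reads, was 582, 510.0, 501 and 518 CPM in WT brains, 501, 454, 489.8 and 661 CPM in atm brains and 452, 583, 629 and 389 CPM in double mutant brains, in fish order 1 to 4. The group means were 528 ± 36.8, 526 ± 91.8 and 513 ± 112 CPM (SD, n = 4 each), with wider spreads in the mutants that were not tested; without the fish labelled double mutant 4 its group stood at 555 ± 91.6 CPM (n = 3). The ratio of the highest to the lowest brain was 1.70 for the core sum and 1.08 for the sum of the other 66 members. The brain of atm 4 was highest of all 12 for 24 of 53 core genes, and the brain labelled double mutant 4, the richest of the 12 in neutrophil markers, was lowest for 33.

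The genes most used to mark cycling cells gave the same picture in the 2-month brains. mki67, an antigen of cycling cells, stood at 38.3, 31.5, 25.8 and 27.0 CPM in the WT brains, 32.1, 23.4, 29.6 and 45.5 CPM in the atm brains and 25.2, 40.7, 43.4 and 19.4 CPM in the double mutant brains. pcna, the replication clamp, stood at 51.9, 39.6, 50.5 and 55.7 CPM in the WT brains, 47.3, 41.9, 52.5 and 59.3 CPM in the atm brains and 45.2, 63.2, 64.5 and 38.2 CPM in the double mutant brains. In both genes atm 4 was the highest atm brain and the fish labelled double mutant 4 the lowest brain of its group, while the ranges of the 3 genotypes overlapped. Between the extremes of the 12 brains, plk1, the Polo kinase of mitotic entry, spanned 7.59 to 15.9 CPM, mcm5, a helicase subunit, 9.27 to 20.4 CPM and cdk1 4.49 to 9.30 CPM. The kinetochore protein gene cenpf spanned 14.0 to 38.9 CPM, the cyclin genes ccnb1 and ccna2 3.60 to 8.19 and 5.49 to 12.2 CPM, and the checkpoint kinase gene bub1 7.74 to 16.4 CPM. The spread over brains, as the median SD of log2(CPM + 0.5), was 0.280 for the core genes, 0.165 for the other members and 0.183 for all 20273 genes that passed the low-count filter.

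No member passed the test between genotypes in the brain. Members were tested with edgeR's quasi-likelihood test on counts, and a gene was called at an adjusted p (Benjamini-Hochberg over all genes tested) under 0.05; 117 of 119 members passed the filter, and ccna1 and kif28p did not. For atm against WT, 0 of 117 members were called, with 0.00987% of all genes called, and 4 members had an unadjusted p under 0.05, as did 8.79% of all genes. For the double mutant against WT, 0 members were called with 0.00493% of all genes called, and 4 members had an unadjusted p under 0.05, as did 5.4% of all genes; for the double mutant against atm, 0 members and 0% of all genes were called, and 2 members had an unadjusted p under 0.05, as did 5.31% of all genes. DESeq2 called 0 members in each of these 3 comparisons, with 0.16%, 0.102% and 0% of all genes called. These comparisons share their groups. Core medians were 0.01, -0.06 and -0.05 on the log2 scale, beside all-gene medians of 0.00, 0.00 and 0.01; without the brain labelled double mutant 4 the last 2 core medians turned to 0.06 and 0.06.

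The members with the smallest p in the brain were mostly outside the core. cenpu, a kinetochore gene, stood at 7.74, 6.28, 7.05 and 6.84 CPM in the WT brains, 5.35, 4.97, 5.50 and 6.17 CPM in the atm brains and 4.18, 6.47, 5.56 and 6.33 CPM in the double mutant brains, and its log2 fold change in atm against WT was -0.34 (SE 0.148, adjusted p = 0.554). For kif6 and cdc14a, a kinesin gene linked to cilia in zebrafish and a phosphatase gene, the same contrast gave 0.56 (SE 0.246, adjusted p = 0.559) and 0.64 (SE 0.287, adjusted p = 0.56). In the double mutant against WT, cdc42ep5 and cdc42ep4, effectors of a small GTPase named like the CDC genes, had values of 0.60 (SE 0.181, adjusted p = 0.891) and 0.32 (SE 0.107, adjusted p = 0.891), and the kinetochore gene cenpl had -0.37 (SE 0.130, adjusted p = 0.891). Against atm, the splicing genes cdc5l and cdc40 and the endosome kinesin gene kif16b differed in the double mutant by 0.18 (SE 0.0720, adjusted p = 0.819), 0.19 (SE 0.0896, adjusted p = 0.819) and -0.48 (SE 0.198, adjusted p = 0.819). None of these 9 values passed the threshold.

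**Figure D1:**
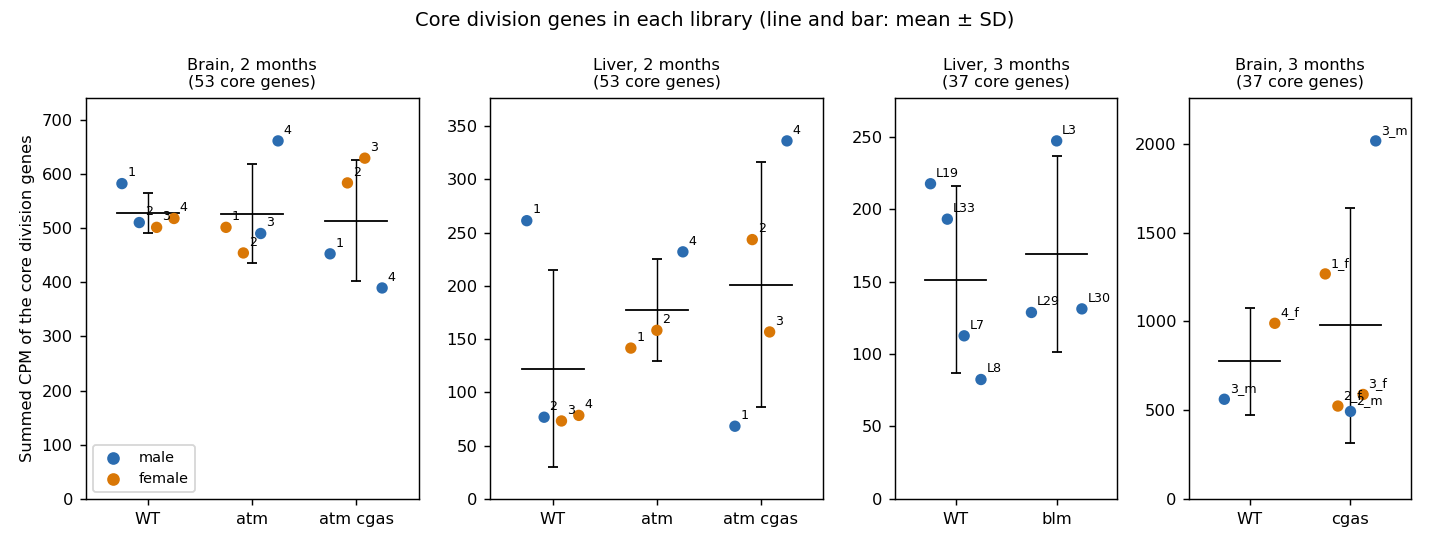
Summed CPM of core genes (y axis) in each library, 1 point per fish coloured by sex, by genotype and organ in the 2-month and 3-month sets, with the mean and SD of each group. Within livers the points spread widely and the genotypes overlap, with WT 1 at 261 CPM and the other 3 WT livers at 73.1 to 78.4 CPM; the sets were scaled separately and the 3-month sums hold 37 of the 53 genes.

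In 2-month livers the core genes spread widely among fish of 1 genotype, and the genotypes overlapped. Their summed level was 261, 76.7, 73.1 and 78.4 CPM in WT livers 1 to 4, 142, 158 and 232 CPM in atm livers 1, 2 and 4 and 68.2, 243, 157 and 336 CPM in double mutant livers 1 to 4. WT liver 1 stood 3.33-fold above the next WT liver. All 3 atm livers lay between WT liver 1 and the other WT livers, and the double mutant livers covered the whole range. WT livers 2 to 4 were also the shallowest liver libraries. Double mutant liver 1, the deepest at 36.8 M counts, had the lowest core sum. The group means were 122 ± 92.5 (SD, n = 4), 177 ± 48.1 (n = 3) and 201 ± 115 CPM (n = 4), the last 156 ± 87.6 CPM (n = 3) without the liver labelled double mutant 4. The ratio of the highest to the lowest liver was 4.93 for the core sum and 1.21 for the sum of the other members. Across the 11 livers the median SD of log2(CPM + 0.5) was 0.707 for core genes, 0.303 for the other members and 0.347 for all 16174 genes that passed the filter.

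Levels of the cycling-cell antigen and of the replication genes moved over wide ranges. mki67 stood at 18.8, 2.17, 1.59 and 1.89 CPM in the WT livers, 9.30, 11.1 and 16.1 CPM in the atm livers and 1.20, 22.9, 9.56 and 28.8 CPM in the double mutant livers. Values were below 3 CPM in WT livers 2 to 4 and double mutant liver 1, and higher in every other liver. pcna stood at 17.1, 2.95, 4.2 and 5.25 CPM in the WT livers, 8.99, 8.75 and 7.84 CPM in the atm livers and 8.36, 12.7, 15.0 and 24.3 CPM in the double mutant livers. mcm5 stood at 23.6, 3.76, 1.36 and 1.59 CPM in the WT livers, 11.4, 12.2 and 25.2 CPM in the atm livers and 2.13, 11.7, 9.73 and 13.4 CPM in the double mutant livers. For pcna, atm livers lay above WT livers 2 to 4 and below WT liver 1, and the liver labelled double mutant 4 was the highest of all. mcm2, another subunit of the helicase ring, spanned 1.53 to 6.97 CPM, and the E2F factor gene e2f1 spanned 1.08 to 4.39 CPM.

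Genes of mitotic entry and of the checkpoint also differed many-fold between livers. cdk1, the kinase that drives mitosis, stood at 5.33, 0.57, 0.681 and 1.36 CPM in the WT livers, 2.83, 2.91 and 6.77 CPM in the atm livers and 1.28, 6.34, 3.23 and 10.9 CPM in the double mutant livers. Its partner ccnb1, a B-type cyclin, stood at 6.57, 0.355, 0.0567 and 0.295 CPM in the WT livers, 3.70, 4.2 and 9.76 CPM in the atm livers and 0.573, 12.2, 3.87 and 7.63 CPM in the double mutant livers. plk1 stood at 5.28, 0.746, 0.965 and 0.649 CPM in the WT livers, 2.97, 3.37 and 5.95 CPM in the atm livers and 0.312, 10.2, 3.41 and 8.63 CPM in the double mutant livers. In each of these 3 genes WT liver 1 exceeded the other WT livers, double mutant liver 1 was the lowest of its group, and the groups overlapped. bub1, the checkpoint kinase, stood at 5.79, 0.533, 0.624 and 0.590 CPM in the WT livers, 3.78, 3.56 and 10.8 CPM in the atm livers and 0.469, 10.8, 4.76 and 6.03 CPM in the double mutant livers. cdc20, which switches on the anaphase-promoting complex, stood at 3.27, 0.178, 0.170 and 0.472 CPM in the WT livers, 2.16, 2.01 and 3.90 CPM in the atm livers and 0.156, 8.18, 2.11 and 4.55 CPM in the double mutant livers. Double mutant liver 2 was the highest liver for cdc20, and atm liver 4 and double mutant liver 2 were about level for bub1. Over the 11 livers the other panel genes spanned 0.260 to 7.56 CPM for ccna2, 0.170 to 2.97 CPM for aurka, 0.118 to 2.71 CPM for bub1b, 0.286 to 8.04 CPM for cenpf, 0.989 to 11.1 CPM for kif11 and 0.114 to 2.58 CPM for ncapg.

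The ratio of the highest to the lowest liver varied among core genes. Among those with more than 3 counts in every liver, the largest were 47.1 for kif20a, a kinesin of cytokinesis, 32.5 for plk1, 29 for ccna2, an A-type cyclin, 28.1 for cenpf and 26.8 for kif23, a kinesin of the spindle midzone. Replication genes reached 24.4 for mcm4 and 18.5 for mcm5. The smallest were 1.5 for ccne1, the cyclin of the start of S phase, 2.04 for cenph, a kinetochore gene, and 2.09 for cdc7, the kinase that fires origins. WT liver 1 was the highest WT liver for 48 of 53 core genes, with a median ratio of 3.66 to the highest other WT liver. Among the double mutants, liver 1 was lowest for 43 core genes and the liver labelled 4 was highest for 40; atm liver 4 was the highest atm liver for 40.

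**Figure D2:**
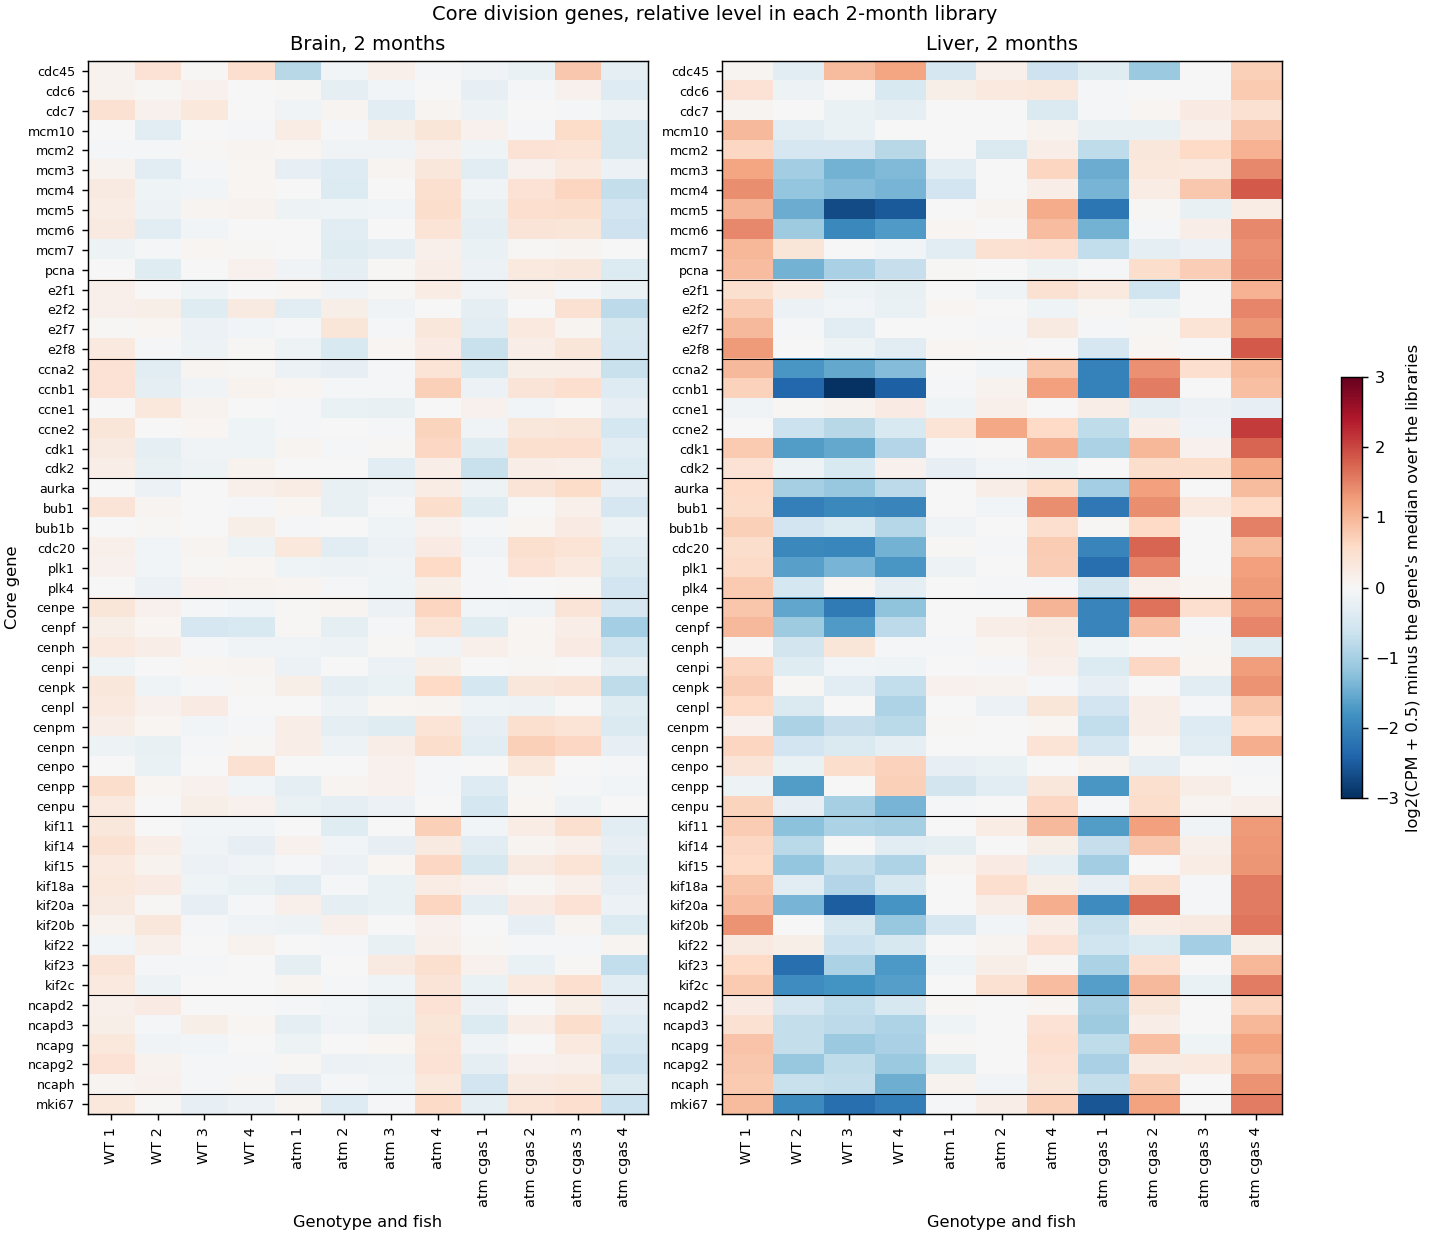
Level of each core gene (rows, grouped by role) in each 2-month brain (left) and liver (right), as log2(CPM + 0.5) minus the gene's median over the libraries of that organ. Liver columns alternate between blue and red over many rows, with WT 1 and the fish labelled double mutant 4 red and WT 2 to 4 and double mutant 1 blue for most mitotic genes, while brain columns stay close to white.

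No member passed the test between genotypes in the liver, where 109 of 119 members passed the filter; ccna1, ccnb1ip1, cdc14a, e2f2, kif19, kif26b, kif27, kif28p, kif5c and kif6 did not. For atm against WT, 0 of 109 members were called, with 0% of all genes called, and 7 members had an unadjusted p under 0.05, as did 10% of all genes. For the double mutant against WT, 0 members were called with 0.662% of all genes called, and 14 members had an unadjusted p under 0.05, as did 19.5% of all genes. Against atm, 0 members were called in the double mutant with 0.0433% of all genes called, and 12 members had an unadjusted p under 0.05, as did 11.5% of all genes. DESeq2 called 1, 6 and 3 members in these comparisons, 0.885%, 5.5% and 3.03% of those tested, with 0.67%, 7.46% and 2.55% of all genes called. The comparisons share their groups. Without the liver labelled double mutant 4, edgeR called 4 members against WT (kif5b, cdk13, cdk9 and kif3c), or 3.7% beside 3.49% of all genes, and 2 against atm (kif5b and cdk9), or 1.85% beside 1.02%; without double mutant liver 1 it called cdk19 against WT, 0.917% of members beside 2% of all genes. Without WT liver 1, edgeR called 3 members in the double mutant against WT, 2.78% beside 4.69% of all genes. Of these, pcna was higher, at a log2 fold change of 1.91 (SE 0.371, adjusted p = 0.0308), and kif13b and cdk19 were lower, at -1.05 and -0.90.

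Core genes lay above the all-gene median in the mutant livers, without passing the test. In atm against WT, 42 of 52 tested core genes had a higher estimate, with a core median of 0.78 beside -0.02 for all genes. In the double mutant against WT, 45 of 52 were higher, with a core median of 0.99 beside 0.00. In the double mutant against atm, 39 of 52 were higher, with a core median of 0.26 beside 0.04. Core genes tend to rise together in a fish, so these counts are not of independent genes. The pooled SD within groups of a liver's mean core log2 CPM was 0.934. With plain library sizes the 3 core medians were 0.99, 1.5 and 0.57, beside all-gene medians of 0.22, 0.48 and 0.27. The medians turned on single livers. Without WT liver 1 the first 2 became 1.62 and 1.91, without WT liver 2 or 4 the atm median was 0.51 or 0.49, and without the liver labelled double mutant 4 the double mutant medians were 0.52 against WT and -0.03 against atm. Without double mutant liver 2 the median against atm was -0.09, without liver 1 it was 0.58, and without atm liver 4 it was 0.14. Among panel genes, the double mutant against WT gave 1.71 (SE 1.0, adjusted p = 0.38) for mki67, 1.61 (SE 0.763, adjusted p = 0.283) for cdk1 and 1.08 (SE 0.516, adjusted p = 0.287) for pcna.

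Role by role, core and other members together, the mitotic roles listed here had higher median estimates in the mutant livers than replication genes. The difference was not tested. Of the 17 replication genes 11 were core, and medians of core genes alone were not taken by role. In the double mutant against WT, core mcm2 to mcm6 and pcna stood at 0.79 to 1.40, above the kinetochore median of 0.75 given below. Core mcm7, mcm10, cdc6, cdc7 and cdc45 stood at -0.64 to 0.34. Outside the core, orc2 to orc5, mcm8 and mcm9 stood at -0.00 to 0.50. The order of replication and kinetochore genes there thus depends on the members taken. The ratio of summed core mitotic to core replication levels was 1.43, 1.93, 2.03 and 2.01 in WT livers 1 to 4. It was 1.84, 1.84 and 1.90 in atm livers 1, 2 and 4. In double mutant livers 1 to 4 it was 1.59, 2.95, 1.44 and 1.69. In atm against WT, median log2 fold changes were 1.13 for mitotic kinases and checkpoint genes, 1.03 for cyclins and their kinases, 0.99 for mitotic kinesins, 0.83 for condensin, 0.78 for centromere and kinetochore genes, 0.24 for replication genes, -0.05 for E2F factors and -0.21 for the other kinesins. In the double mutant against WT they were 1.5 for mitotic kinases and checkpoint genes, 1.41 for cyclins and their kinases, 1.17 for mitotic kinesins, 1.21 for condensin, 0.75 for centromere and kinetochore genes, 0.34 for replication genes, 0.67 for E2F factors and -0.20 for the other kinesins. All 5 condensin genes and all 7 mitotic kinase and checkpoint genes tested had a higher estimate in the double mutant, as did 13 of 17 replication genes. The other kinesins, most of which carry cargo in cells that do not divide, include by name kif1bp, a gene for a kinesin-binding protein. Of this role, 13 of 14 tested had a lower estimate in atm and 12 of 14 in the double mutant. No role held a called member. These medians moved with single livers. Without the liver labelled double mutant 4, the double mutant against WT gave 1.30 for mitotic kinases and checkpoint genes, 0.59 for cyclins and their kinases, 0.50 for mitotic kinesins, 0.81 for condensin, 0.07 for centromere and kinetochore genes and 0.21 for replication genes, so kinetochore genes then lay below replication genes. Without WT liver 1 the same 6 medians were 2.67, 1.56, 2.03, 2.08, 1.26 and 0.56, and those of atm against WT were 2.31, 1.74, 1.74, 1.66, 1.26 and 0.45.

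The liver members with the smallest p lay outside the core. kif5b, the heavy chain of the ubiquitous kinesin-1 motor, stood at 14.9, 18.6, 16.5 and 17.0 CPM in the WT livers, 16.3, 14.8 and 15.4 CPM in the atm livers and 23.4, 30.6, 31.6 and 21.6 CPM in the double mutant livers. All 4 double mutant livers lay above all WT and atm livers, with log2 fold changes of 0.66 (SE 0.137, adjusted p = 0.0628) against WT and 0.80 (SE 0.150, adjusted p = 0.0989) against atm. kif21b, a microtubule-regulating kinesin, stood at 1.67, 4.86, 5.33 and 6.72 CPM in the WT livers, 2.83, 1.86 and 0.732 CPM in the atm livers and 1.90, 2.91, 4.16 and 1.74 CPM in the double mutant livers. WT livers 2 to 4 lay above all 3 atm livers and WT liver 1 did not, and the log2 fold change was -1.62 (SE 0.381, adjusted p = 0.421) by edgeR; DESeq2 gave -1.60 with an adjusted p of 0.0211. kif1b, a motor for mitochondria and vesicles, stood at 10.6, 13.5, 16.4 and 19.2 CPM in the WT livers, 12.0, 12.6 and 9.27 CPM in the atm livers and 12.6, 15.2, 16.5 and 10.9 CPM in the double mutant livers, a log2 fold change of -0.46 (SE 0.133, adjusted p = 0.421) in atm against WT. For cdk19, a kinase of the Mediator complex, the same contrast gave -0.77 (SE 0.230, adjusted p = 0.421).

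In the double mutant against WT, cdk13, a kinase of RNA polymerase II, had a log2 fold change of 0.75 (SE 0.182, adjusted p = 0.0809), with levels of 13.9, 16.3, 15.4 and 13.8 CPM in the WT livers, 16.7, 12.6 and 17.1 CPM in the atm livers and 19.9, 30.4, 31.1 and 19.9 CPM in the double mutant livers. kif13b, a transport kinesin, had -0.86 (SE 0.225, adjusted p = 0.0951), with levels of 5.43, 12.5, 13.3 and 15.3 CPM in the WT livers, 7.48, 8.56 and 5.18 CPM in the atm livers and 4.37, 7.56, 8.92 and 5.0 CPM in the double mutant livers. All 4 double mutant livers lay above all WT and atm livers for cdk13, and for kif13b WT livers 2 to 4 lay above all others while WT liver 1 did not. In the double mutant against atm, cdc42ep4 had -0.71 (SE 0.160, adjusted p = 0.146) and cdk9, the elongation kinase of RNA polymerase II, had 0.88 (SE 0.220, adjusted p = 0.177). Genes of replication and division outside the name rule, 104 of 122 listed symbols found, gave 0 called genes in each liver genotype comparison. Of 101, 77 had a higher estimate in atm, 91 in the double mutant against WT and 80 in the double mutant against atm. The all-gene medians of these comparisons were -0.02, 0.00 and 0.04. These counts are not of independent genes, and they are not given with single livers left out.

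Neutrophil markers moved with the core genes in some livers. Summed neutrophil markers (4 of 5 listed genes measured) stood at 56.3 CPM in WT liver 1 and 86.4 CPM in the liver labelled double mutant 4, and at 1.80 to 9.88 CPM in the other 9 livers. Those 2 livers also had the highest core sums. Double mutant liver 2, at 243 CPM of core genes, held 9.88 CPM of neutrophil markers, and atm liver 4, at 232 CPM, held 7.41 CPM. In the livers the lysozyme gene lyz was at 0 to 29.3 CPM and csf3r, a neutrophil receptor gene, at 0.387 to 31.5 CPM. With WT 1 and double mutant 4 left out, a choice made after seeing the data that also removes the 2 highest livers, edgeR called 5 members in atm against WT, 12 in the double mutant against WT and 2 between the mutants, pcna among the first 2 sets at 1.09 and 1.56. Those were 4.67%, 11.2% and 1.87% of the members tested, beside 1.6%, 11.5% and 1.92% of all genes. Hepatocyte markers were lower in WT livers 3 and 4, both female, at 19707 and 19808 CPM, than in the others, at 37893 to 61788 CPM. The 20 most abundant genes took 54.0% and 59.8% of counts in WT livers 3 and 4 against 30.4% to 37.4% elsewhere. Other marker sums also ranged over the 11 livers. They spanned 6.62 to 239 CPM for pancreas acinar cells (1 of 7 genes measured) and 11.6 to 58.9 CPM for lymphocytes. Erythroid markers spanned 13.6 to 72.9 CPM and macrophage markers 56.6 to 188 CPM. The part of all these cells in the core levels was not tested.

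**Figure D3:**
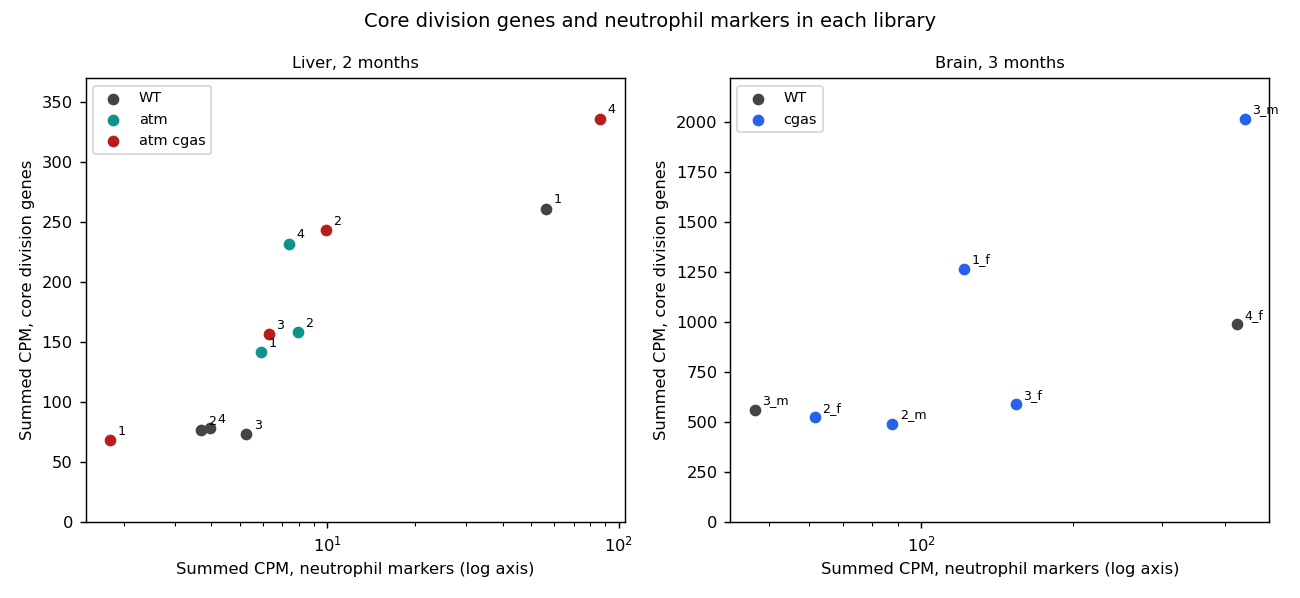
Core sum (y axis, CPM) against summed neutrophil markers (x axis, CPM, log scale), 1 point per library, in 2-month livers (left) and 3-month brains (right), coloured by genotype. In 2-month livers WT 1 and the fish labelled double mutant 4 stand at the right and at the top, while double mutant 2 and atm 4 are high in core genes with under 10 CPM of neutrophil markers.

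Livers also differed in the balance of replication and mitotic genes. The 11 core replication genes and 31 core mitotic genes were summed separately. Double mutant liver 2 held 47.3 CPM of replication genes and 139 CPM of mitotic genes, a ratio of 2.95, while the other livers had ratios of 1.43 to 2.03. WT liver 1 held 87.5 and 125 CPM, and the liver labelled double mutant 4 held 95.7 and 162 CPM. In 3-month livers, with 7 and 22 genes, WT L33 held 31.5 and 110.4 CPM, a ratio of 3.50, and WT L19 95.7 and 87.7 CPM, a ratio of 0.917; the other 5 lay between 1.11 and 2.07. These ratios describe single fish and were not tested between groups.

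**Figure D4:**
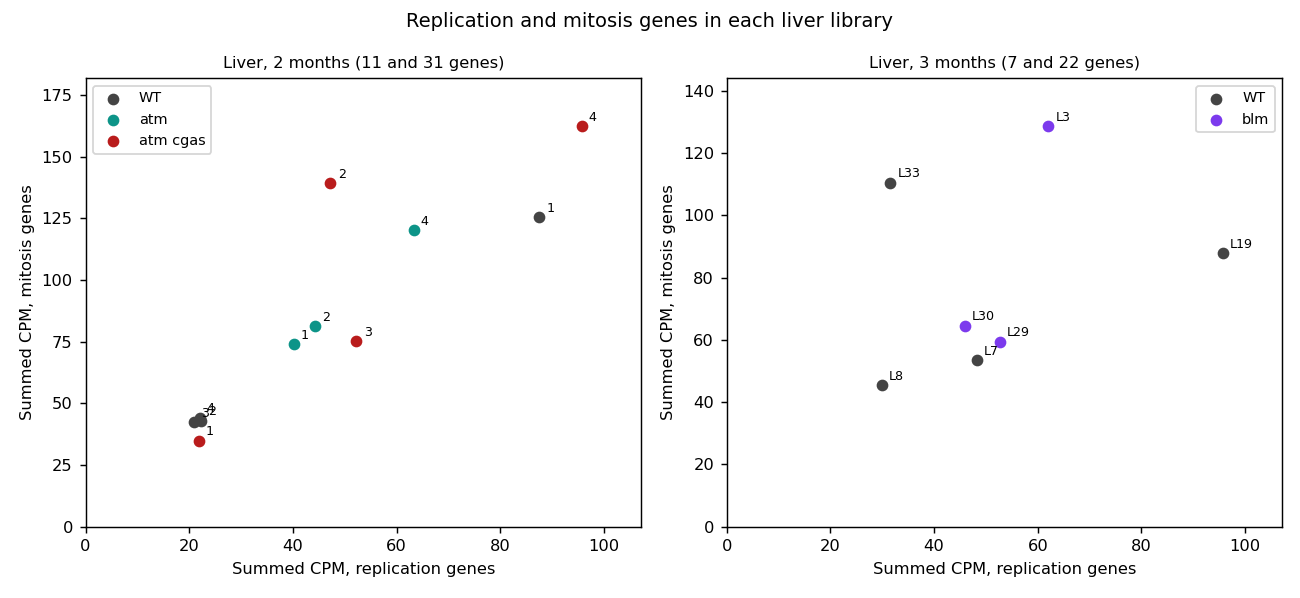
Summed CPM of core mitotic genes (y axis) against core replication genes (x axis), 1 point per liver, at 2 and 3 months. Double mutant 2 at 2 months and WT L33 at 3 months lie above the other livers for their replication level, with ratios of 2.95 and 3.50.

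Between the sexes, 1 member passed the test in the liver and none in the brain. Core sums were 531 ± 63.6 CPM in female brains and 514 ± 96.0 CPM in male brains (SD, n = 6 each), and 142 ± 62.5 CPM in 6 female livers and 195 ± 118 CPM in 5 male livers. Without the fish labelled double mutant 4 the males stood at 539 ± 82.8 CPM in brain (n = 5) and 159 ± 101 CPM in liver (n = 4). Female livers ran from 73.1 to 243 CPM and male livers from 68.2 to 336 CPM, so the sexes overlapped, and the 2 livers rich in neutrophil markers were both male. The female WT livers, 3 and 4, were those with lower hepatocyte markers and more counts in the 20 most abundant genes. The part of this make-up in the sex comparisons was not tested. In the brain, 0 of 117 members were called by edgeR or DESeq2, which called 0.00503% and 0.208% of all genes, and 2 members had an unadjusted p under 0.05, as did 8.9% of all genes. The smallest p values there were for the vesicle kinesin kif1c at 0.23 (SE 0.0799, adjusted p = 0.556), the cilium motor kif3b at -0.25 (SE 0.107, adjusted p = 0.556) and mcm2 at -0.26 (SE 0.121, adjusted p = 0.559) in males against females. The core median was -0.06 beside 0.01 for all genes, and it turned to 0.03 without the brain labelled double mutant 4.

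The member called by sex in the liver was kif1b. Its lowest, median and highest values were 12.0, 15.8 and 19.2 CPM in female livers and 9.27, 10.9 and 13.5 CPM in male livers. The ranges overlapped in part, and males were lower by a log2 fold change of -0.48 (SE 0.105, adjusted p = 0.0442). That was 1 of 107 members tested, with 2.84% of all genes called and 1.56% called lower in males; 19 members had an unadjusted p under 0.05, as did 21.6% of all genes. The call was lost when any 1 of 9 livers was left out and held without double mutant liver 1 or the one labelled 4. It was also lost without the filter on low counts, without the genotype covariate and with plain library sizes. DESeq2 called 6 of 113 members, 5.31% beside 10.3% of all genes, kif1b among them. e2f1 stood at 1.08, 1.66 and 1.88 CPM in females and 2.27, 2.77 and 4.39 CPM in males, ranges that did not overlap, with a log2 fold change of 0.87 (SE 0.235, adjusted p = 0.0757), and kif21b differed by -1.09 (SE 0.295, adjusted p = 0.077). Core genes had a higher estimate in males for 45 of 50 tested, with a median of 0.69 beside 0.03 for all genes, and none passed by edgeR. That count is not of independent genes, and the pooled SD within groups of a liver's mean core log2 CPM was 0.934. DESeq2 called 2 core genes, e2f1 at 0.88 (adjusted p = 0.016) and the mitotic kinesin gene kif22 at 0.61 (adjusted p = 0.0273), and edgeR called kif22 without double mutant liver 1. Without WT liver 1 that median was 0.21, and without the liver labelled double mutant 4 it was 0.40; with plain library sizes it was 1.04 beside 0.34 for all genes. Condensin had the highest role median, 0.91, and replication genes had 0.44. Of the pathway genes outside the rule, 0 of 96 were called and 91 had a higher estimate in males, beside the all-gene median of 0.03. That count is not of independent genes either.

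The difference of the double mutant effect between the sexes in the liver was tested directly and called no member. Of 113 members tested, 0 were called with 0.319% of all genes called, and 9 members had an unadjusted p under 0.05, as did 14.6% of all genes; DESeq2 called 3 (cenpu, mcm5 and cdc42ep5), 2.88% of members beside 5.35% of all genes. The smallest p values were for cdc42ep5 at 1.25 (SE 0.285, adjusted p = 0.106), cenpu at 2.16 (SE 0.563, adjusted p = 0.144) and kif26a, a kinesin that lacks motor activity in mammals, at 1.45 (SE 0.441, adjusted p = 0.203), each as the effect in females minus that in males. The core median was 0.99 beside 0.03 for all genes (1.41 beside 0.62 with plain library sizes), and it was -0.30 without WT liver 1, 3.08 without the liver labelled double mutant 4, 0.31 without double mutant liver 1 and 1.64 without WT liver 2. With 2 fish of each sex and genotype, single livers set this value. Its female WT livers were WT 3 and 4, where the 20 most abundant genes took 54.0% and 59.8% of counts. The part of that make-up was not tested.

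Between organs, 86 of 117 members passed the test, 53 higher in brain and 33 lower, against 86.5% of all genes called, 51% higher and 35.4% lower; 86 members had an unadjusted p under 0.05, as did 86.9% of all genes. The members' share, 73.5%, was below the background, and most genes of any kind differ between these organs. Core genes divided almost evenly, with 17 called higher in brain and 13 lower of 53, and a median log2 fold change of 0.11 beside 0.41 for all genes. The sign of the calls moved with the scaling, while the core median lay below that of all genes under each: by 0.30 with TMM, 0.28 with size factors of the DESeq2 type and 0.31 with plain library sizes. With plain library sizes the core median was 1.79 beside 2.10 for all genes, and 46 core genes were called higher and 2 lower; with size factors of the DESeq2 type the calls were 18 and 12. The TMM factors were 1.69 to 1.84 in brains and 0.353 to 0.761 in livers. Leaving out WT liver 1 moved the TMM core median to 0.48, double mutant liver 2 to 0.19, WT liver 2 to 0.02 and double mutant liver 1 to 0.00. Differences below are on the log2 scale with TMM scaling, and CPM levels were scaled within each organ.

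Among called members whose mean log2 CPM reached 1, kinesins outside mitosis had the largest brain excess. kif5c, the neuronal heavy chain of kinesin-1, spanned 86.6 to 142 CPM in brains and held 0 to 3 counts per liver, and its fitted log2 difference of 10.47 (SE 0.197) depends on the prior count. kif19, a kinesin of motile cilia in mammals, held 0 to 5 counts per liver and had a fitted difference of 7.21 (SE 0.342). kif26b, at 3 to 12 counts per liver, had 6.09 (SE 0.155), and kif27, at 2 to 13 counts per liver, had 3.50 (SE 0.189). kif1b had 4.28 (SE 0.0756) and kif3a, a motor of cilia assembly, 3.07 (SE 0.108). kif21b and kif5b followed at 2.37 (SE 0.180) and 2.19 (SE 0.0691). kif1bp, a gene for a kinesin-binding protein grouped with the kinesins by name, had 2.20 (SE 0.0835). plk3 and plk2, Polo-family kinases of stress and synapse signalling, had 2.95 (SE 0.0918) and 2.27 (SE 0.130). In the core, bub1b, a checkpoint protein, had the largest brain excess in the same set, at 1.93 (SE 0.252). Each of these 12 values had an adjusted p under 0.05.

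Higher in liver were genes of several roles. cdc42ep5 differed by -3.06 (SE 0.139), the kinetochore genes cenpp and cenph by -2.95 (SE 0.293) and -2.56 (SE 0.132), and kif1c, kif7 and kif17 by -2.63 (SE 0.0939), -2.43 (SE 0.0866) and -1.92 (SE 0.156). kif7 regulates Hedgehog signalling and kif17 carries cargo along dendrites and cilia in mammals. cdk4, the cyclin D kinase of early cycle entry, differed by -2.57 (SE 0.0967), and cdc26, a small subunit of the anaphase-promoting complex, by -2.10 (SE 0.143). kif13b, cdk7, the kinase that activates other CDKs, cenpo and ccnb1 differed by -1.47 (SE 0.113), -1.39 (SE 0.0564), -1.31 (SE 0.118) and -1.34 (SE 0.491). All 12 passed the adjusted threshold, and the last 4 turned to a higher estimate in brain with plain library sizes, at 0.23, 0.31, 0.41 and 0.31, still below the all-gene median of 2.10 under that scaling. With each fish as a block ccnb1 moved to -0.72 and was no longer called, and it was not called without WT liver 1, at -0.36, or without double mutant liver 2, at -0.99.

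By role, the median brain-over-liver differences were 2.19 for the other kinesins, 0.79 for E2F factors, 0.62 for the other CDKs, 0.50 for condensin, 0.43 for replication genes, 0.11 for centromere and kinetochore genes, -0.01 for mitotic kinases and checkpoint genes, -0.03 for mitotic kinesins, -0.19 for cyclins and their kinases and -0.70 for the anaphase-promoting complex. Calls of both directions fell inside most roles: 8 replication genes were higher in brain and 3 lower, 4 kinetochore genes were higher and 4 lower, and 2 cyclins or their kinases were higher and 4 lower. All 4 called E2F genes were higher in brain. Of the pathway genes outside the rule, 59 of 103 were called, 42 higher and 17 lower, among them rb1, the retinoblastoma repressor of E2F, at 2.01, the nuclear lamin gene lmnb1 at 2.11, the maintenance methyltransferase gene dnmt1 at 1.07, the single-strand binding gene rpa1 at -2.13 and dhfr, for nucleotide synthesis, at -1.91.

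**Figure D5:**
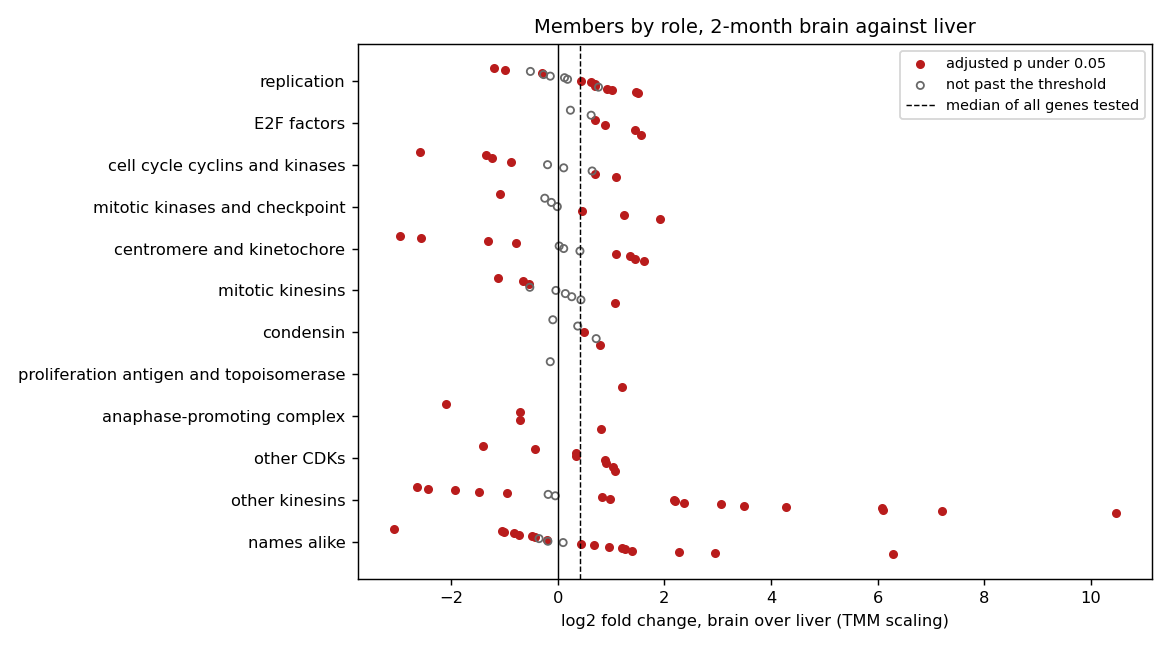
log2 fold change of brain over liver at 2 months (x axis, TMM scaling) for each tested member, 1 point per gene, by role (rows); filled points passed the adjusted p of 0.05 and the dashed line marks the median of all genes tested. Kinesins outside mitosis reach far to the right, up to 10.47 for kif5c, while replication and mitotic genes lie on both sides of the line.

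The atm effect was compared between organs with an interaction term, in a fit without a term for the fish. Of 117 members, 0 were called with 0.241% of all genes called, and 11 members had an unadjusted p under 0.05, as did 13% of all genes; DESeq2 called 1 (kif21b), 0.855% of members beside 2.45% of all genes. The smallest p values were for kif21b, kif13b and kif1b, whose atm effects were lower in liver than in brain by log2 differences of -1.93 (SE 0.438, adjusted p = 0.0693), -0.85 (SE 0.280, adjusted p = 0.193) and -0.42 (SE 0.159, adjusted p = 0.252). The pooled SD within groups of a library's mean core log2 CPM was 0.691. The core median was 0.66 beside 0.00 for all genes, with 47 of 53 core genes higher in liver, a count not of independent genes. Without WT liver 1 that median was 1.56, and edgeR called 6 members, 5.13% beside 2.88% of all genes: ccnb1 at 4.47, the mitotic kinesin kif2c at 3.96, mcm5 at 2.90 and cenpu at 1.66 had a higher atm effect in liver, and kif21b at -2.10 and kif13b at -1.0 a lower one.

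In the livers of 3-month-old males, blm mutants overlapped WT fish in the core genes. Core sums over 37 genes were 113, 82.4, 218 and 193 CPM in WT livers L7, L8, L19 and L33 and 247, 129 and 131 CPM in blm livers L3, L29 and L30. The means were 151 ± 64.2 (SD, n = 4) and 169 ± 67.7 CPM (n = 3). In the same fish order, mki67 stood at 5.41, 2.78, 18.1 and 27.7 CPM in the WT livers and 31.0, 8.36 and 11 CPM in the blm livers, and plk1 at 0.696, 0.488, 4.23 and 8.28 CPM in the WT livers and 8.55, 1.72 and 2.01 CPM in the blm livers. mcm5 stood at 21.2, 9.65, 31.8 and 10.3 CPM in the WT livers and 19, 23.0 and 12.7 CPM in the blm livers. For mki67, blm L3 was the highest liver and WT L8 the lowest, and both genotypes held high and low fish. The highest-to-lowest ratio was 3.00 for the core sum and 1.11 for the other 46 members.

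No member was called between blm and WT livers. Of 78 members tested (ccna1, ccnb1ip1, kif19, kif28p and kif5c did not pass the filter), 0 were called by edgeR or DESeq2, with 0% of all 10374 genes called, and 3 members had an unadjusted p under 0.05, as did 8.05% of all genes. mcm8, a helicase of meiosis and DNA repair, stood at 0.482, 0.293, 0.443 and 0.462 CPM in the WT livers and 0.760, 0.717 and 0.960 CPM in the blm livers, with all 3 blm livers above the WT livers and a log2 fold change of 0.94 (SE 0.358, adjusted p = 0.548). cdk10, a kinase linked to transcription, had -0.33 (SE 0.134, adjusted p = 0.59) and kif3a 0.39 (SE 0.166, adjusted p = 0.598). The core median was 0.19 beside -0.00098 for all genes, and every single liver moved it: to -0.19 without blm L3, -0.06 without WT L8, 0.01 without WT L7, and between 0.39 and 0.57 without L30, L19, L29 or L33. Macrophage markers summed to 857 CPM in blm L30 and 445 CPM in blm L3, against 116 to 232 CPM in the other 5 livers, and neutrophil markers (2 of 5 measured) ran from 13.9 to 81.3 CPM with blm L3 the highest; their part in the core levels was not tested.

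In the 3-month brains, core sums varied 4.09-fold between libraries (3.27-fold with plain library sizes), and the genotypes overlapped. Core sums over 37 genes were 561 and 989 CPM in the WT brains 3_m and 4_f, and 1267, 523, 588, 493 and 2016 CPM in cgas brains 1_f, 2_f, 3_f, 2_m and 3_m. The means were 775 ± 303 (SD, n = 2) and 978 ± 663 CPM (n = 5). With plain library sizes they were 996 ± 400 and 827 ± 400 CPM, so the WT mean was then the higher. In the same order, mki67 stood at 51.9 and 134 CPM in the WT brains and 151, 52.3, 75.6, 51.8 and 288 CPM in the cgas brains. ccnb1 stood at 11.8 and 23.6 CPM in the WT brains and 36.3, 8.97, 13.6, 8.64 and 69.8 CPM in the cgas brains, and mcm5 at 25.1 and 51.3 CPM in the WT brains and 67.2, 23.9, 27.8, 21.0 and 93.5 CPM in the cgas brains. With TMM scaling, the cgas brain 3_m was the highest of the 7 for 37 of 37 core genes. WT 4_f exceeded WT 3_m in all 37. By core sum cgas 2_f, 3_f and 2_m lay between 493 and 588 CPM, around WT 3_m. With plain library sizes the highest core sums were nearly level, at 1288 CPM in cgas 3_m, 1279 CPM in WT 4_f and 1213 CPM in cgas 1_f. The rank of cgas 3_m thus leans on the scaling.

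No member was called between cgas and WT brains, where 82 of 83 members passed the filter and ccna1 did not. By edgeR and by DESeq2, 0 members were called, with 0.463% of all genes called by edgeR and 4.32% by DESeq2, and 0 members had an unadjusted p under 0.05, as did 8.39% of all genes. The smallest p values were for cenpv, a gene named like the centromere proteins, at 0.76 (SE 0.351, adjusted p = 0.688), kif13b at -0.96 (SE 0.444, adjusted p = 0.689) and cdk8, a kinase of the Mediator complex, at 0.32 (SE 0.175, adjusted p = 0.768). The core median was 0.34 beside 0.02 for all genes, with 36 of 37 higher. With plain library sizes it was -0.23 beside -0.52, with 36 of 37 lower. The sign thus depended on the scaling, while the core median lay above that of all genes by 0.33 with TMM and with size factors of the DESeq2 type and by 0.29 with plain library sizes. It turned on single brains, at 1.24 without WT 4_f, -0.28 without WT 3_m, -0.37 without cgas 3_m, 0.54 without cgas 2_f and close to 0 without cgas 1_f. The pooled SD within groups of a brain's mean core log2 CPM was 0.841, and the counts of core genes are not of independent genes.

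Markers of other tissues were read in those brain libraries. Markers of skeletal muscle, a list added after seeing the data, summed to 11535 to 129577 CPM in 3-month brains and 32.1 to 361 CPM in 2-month brains, in 11 of 18 genes measured; the sets were scaled separately. Neutrophil markers summed to 423 CPM in WT 4_f and 439 CPM in cgas 3_m, within a range of 46.8 to 439 CPM, and erythroid markers (3 of 8 measured) to 135 to 669 CPM. Intestine markers (2 of 5 measured) stood at 104 and 271 CPM in the WT brains and 3.08 to 7.03 CPM in the cgas brains. The labelled protocol for this set names liver isolation while its tissue field reads brain; neuron markers were high, and the tissue field was followed. The 20 most abundant genes took 11.5% of counts in each WT brain. In the cgas brains they took 16.9% (3_f) to 38.2% (3_m), so this share differed with genotype in this set. The part of these tissues, and of this share, in the core levels was not tested.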

How the data were processed

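Deposited counts of reads per gene were used as the authors made them. Per the submitters' processing notes, reads were handled with FastQC 0.11.8, Trim Galore 0.6.4, cutadapt 3.4, STAR 2.7.6a and edgeR 3.32.1; the genome build, annotation, counting step and strand setting are not given in the sources used here, so reads shared with near-identical or antisense genes cannot be told apart. Libraries were made from poly(A) RNA with a KAPA kit and read single-end, per the labels. The 37 analysed libraries held 11 to 39.3 M counts (M stands for 1000000). In the 3-month tables, which list the first 16383 genes of the 2-month table, 8 names that a spreadsheet had turned into dates were restored by position.

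Levels are CPM with TMM factors within each of 4 sets (2-month brain, 2-month liver, 3-month liver, 3-month brain); genes have no lengths here, so levels are not compared between genes. Tests used edgeR 4.0.16 (R 4.3.3, limma 3.58.1): TMM, filterByExpr, robust glmQLFit and glmQLFTest, with Benjamini-Hochberg adjustment over all genes tested and a threshold of 0.05. The 3 genotypes of an organ were fitted together with sex as a covariate, sexes with genotype, organs with both within organ, cgas with sex, and blm with none. The scripts were tested on simulated counts for the double mutant against WT. True log2 changes of 1 in size were called with the right sign for 19.4% of changed genes in liver and 72.7% in brain. For true changes of 2 the shares were 66.7% and 92.9%. A liver gene without a call can therefore still differ. DESeq2 1.42.0 and the settings in the closing section were alternatives.

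The members, roles and lists were chosen with earlier results of these data known. Genes were named by rule: all called members up to 24, otherwise the 12 highest and 12 lowest called whose mean log2 CPM reached 1, the 3 smallest p values where fewer than 3 passed, and a panel of division markers, of which 16 of 20 carry those names in the files. Genes named from alternative settings were chosen after their values were seen. RefSeq symbols (NfurGRZ-RIMD1) were used for 5241 of 14280 LOC names. Correlations of deviations between equal fish numbers of different genotypes had means from -0.33 to 0.12 across pairs of genotypes. By their titles, brain and liver of 1 number come from 1 fish. Their mean correlation was 0.12 (-0.03 to 0.37, 11 fish), about the top of that range.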

Additional observations from a re-analysis of the deposited data

Results flagged for a closer look

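Values were screened for a fish far from the others of its group in groups of 4 to 10, over 111 combinations of group and measure, and 19 stood apart where chance gives about 1 in 20. The measures rise together in a fish, so the count is not of independent events. Of these, 15 belong to WT liver 1 at 2 months: the core sum of 261 CPM, mki67 at 18.8, pcna at 17.1, ccna2 at 5.56, ccnb1 at 6.57, cdk1 at 5.33, mcm2 at 5.02, mcm5 at 23.6, aurka at 1.73, plk1 at 5.28, bub1 at 5.79, cdc20 at 3.27, cenpf at 5.58, kif11 at 7.54 and ncapg at 1.93 CPM, each far above the other 3 WT livers. The other 4 belong to the 2-month brain of atm 4: ccnb1 at 8.19, cdk1 at 9.30, mcm5 at 20.4 and plk1 at 15.9 CPM, each above the other 3 atm brains. WT liver 1 also held 56.3 CPM of neutrophil markers, where the other WT livers held under 10 CPM, and the part of those cells in its core levels was not tested; the brain of atm 4 held 8.48 CPM, the lowest of the atm brains.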

How the results depend on the processing

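Counts of called members moved with the setting mainly in the liver; the cause was not tested. DESeq2 called 1 member in atm against WT, 6 in the double mutant against WT, 3 in the double mutant against atm, 6 by sex, 1 for the organ difference of the atm effect and 3 for the sex difference of the double mutant effect, where edgeR called 1 by sex and 0 otherwise; DESeq2 called more of all genes too, at 0.67%, 7.46%, 2.55%, 10.3%, 2.45% and 5.35%. With plain library sizes, added after seeing the data, edgeR called 3, 0 and 3 in the double mutant against WT, by sex and in the sex difference. The same fits called 662, 511 and 765 of all genes, where the main fits called 107, 439 and 57. Leaving out both livers rich in neutrophil markers, also added later, gave 5, 12, 2 and 0 for the genotype contrasts and sex. By sex, 0 were called without the low-count filter and without covariates. Leaving out single libraries gave 0 to 4 for the double mutant against WT, 0 to 2 against atm, 0 to 3 by sex, 0 to 6 for the organ difference and 0 to 7 for the sex difference of the double mutant effect, whose 7 (6.19%, beside 11.2% of all genes) came without double mutant liver 1. Among single genes, kif13b (0.23), cdk7 (0.31), ccnb1 (0.31) and cenpo (0.41) changed sign between brain and liver with plain library sizes, below an all-gene median of 2.10, and cdk8 in cgas brains did (-0.22), above an all-gene median of -0.52, and kif13b in cgas brains ran from -1.84 without WT 4_f to 0.079 without WT 3_m. A replicate block on fish numbers gave 0 called members in every genotype comparison. Nothing in the labels ties equal numbers of different genotypes, so these 0 calls are no check on the main fits. With the fish as the replicate block 81 members were called between organs. For both kinds of block fit and for the left-out libraries by sex, no share of all genes is given here. Those counts are therefore not read as results about the members. Only 2 WT brains at 3 months and 3 blm livers limit those contrasts, and low counts limit kif5c, kif19, kif26b and kif27 in liver.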
